A study of Homo sapiens with 9 samples.

Results

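The 35 genes described here are targets and regulators of the transcription factor NRF2, chosen by name from the 29972 genes of the deposited table. They comprise NFE2L2, which encodes NRF2, its repressor KEAP1, the nuclear proteins NR0B1 and PIR, and enzymes and transporters of quinone and carbonyl reduction, glutathione, thioredoxin, haem and iron, the pentose phosphate pathway, and conjugation and efflux. Of these, 33 were abundant enough to be tested, while ALDH3A1 and GPX2 fell under the limit set for testing. The samples were H2030 cells, a long-used line from a human non-small cell lung tumour that is known to carry a mutated KEAP1, which cannot be judged from a table of gene totals. The siMENA11a libraries came from cells transfected with a custom mix of siRNAs against exon 11a of ENAH, and the siMENA libraries from cells transfected with a commercial pool against every ENAH isoform. The control libraries came from cells given a non-targeting pool, and it belongs to another reagent line than the pool against all isoforms. All 3 groups received duplexes at 20 nmol/L with the same lipid reagent. ENAH encodes hMENA, an actin regulator, and exon 11a marks its epithelial isoform hMENA11a. Each group had 3 libraries of 1 cell line. Separate cultures are not stated in the labels, so the p-values reflect variation among these libraries alone, and that variation may be technical. The interval between transfection and harvest is not given in the sources used here.

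NRF2 switches on genes for antioxidant defence by binding, as a dimer with a small MAF protein, to antioxidant response elements near their promoters. KEAP1 normally holds NRF2 in the cytoplasm and delivers it to a CUL3 ubiquitin ligase for destruction, and oxidants or electrophiles that modify KEAP1 let NRF2 accumulate. In lung cancer, mutation of KEAP1 or NFE2L2 keeps the pathway on, and its targets supply glutathione, reduced thioredoxin and NADPH. NRF2 is controlled largely at the level of the protein, which an RNA table does not show.

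The measure was TPM (transcripts per 1000000, which corrects for gene length), divided here by a size factor per library to give scaled TPM. Size factors were 0.886 to 0.973 in siMENA11a, 1.06 to 1.09 in siMENA and 0.995 to 1.04 in control. A library held 12258 to 12520 genes at 1 TPM or more, and RN7SL transcripts took 44.3% to 45.2% of TPM in siMENA11a, 39.6% to 40.6% in siMENA and 39.7% to 41.1% in control. ENAH had 46.7, 47.5 and 48.7 scaled TPM in the siMENA11a libraries, 6.89, 7.30 and 7.48 in siMENA and 43.6, 43.2 and 44.7 in control. The siMENA libraries were low and did not overlap with control, whereas a gene total sums all isoforms and cannot check the knockdown of exon 11a. Of 6 epithelial markers, 4 were expressed (KRT7, KRT8, KRT18 and EPCAM), while CDH1 and KRT19 were at or near 0 in every library, so part of the epithelial set was absent. Among markers of other cells, PTPRC was at or near 0 and CD3E was at 0, and 0 of 4 endothelial markers reached a mean of 1 over the 9 libraries, although CDH5 averaged 1.06 in siMENA and 0.576 in control. The summed leukocyte markers, almost all of it CD68, ranged over 125 to 131 scaled TPM in siMENA11a, 41.0 to 49.5 in siMENA and 97.4 to 105 in control. Summed fibroblast markers, almost all COL1A1, ranged over 6.84 to 7.03, 14.0 to 15.7 and 7.66 to 8.54 scaled TPM in siMENA11a, siMENA and control. The part of these markers and of the RN7SL share in the results below was not tested.

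The antioxidant genes were highly expressed in control cells, and their levels spanned the range from ferritin to barely detected enzymes. FTL, the light chain of ferritin, averaged 2579 ± 99.8 scaled TPM in control (SD, n = 3), and FTH1, the heavy chain, averaged 2482 ± 40.1. PRDX1, a peroxiredoxin that removes hydrogen peroxide, averaged 587 ± 1.83, and NQO1, a quinone reductase used as a readout of NRF2 activity, averaged 573 ± 14.3. These 4 genes ranked 16, 18, 103 and 108 among the 13498 tested genes. The neighbours PRDX1 and NQO1 lay within the spread of NQO1, and so did the pairs TXNRD1 and TKT (366 and 357) and AKR1C3 and AKR1B1 (275 and 274) within the larger of their SDs. At the low end of the tested genes stood CBR3 with 12.1 ± 1.61, NR0B1 with 9.37 ± 1.21 and AKR1B10 with 5.66 ± 0.891. The summed level of all 35 genes was 9912, 9677 and 9416 scaled TPM in siMENA11a, 9566, 10082 and 9815 in siMENA, and 9235, 9163 and 9478 in control. Without the 2 ferritin chains the sum was 4128, 3988 and 3881 in siMENA11a, 3932, 4074 and 4045 in siMENA, and 4205, 4223 and 4264 in control, so the order of the sums depended on ferritin.

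**Figure D1:**
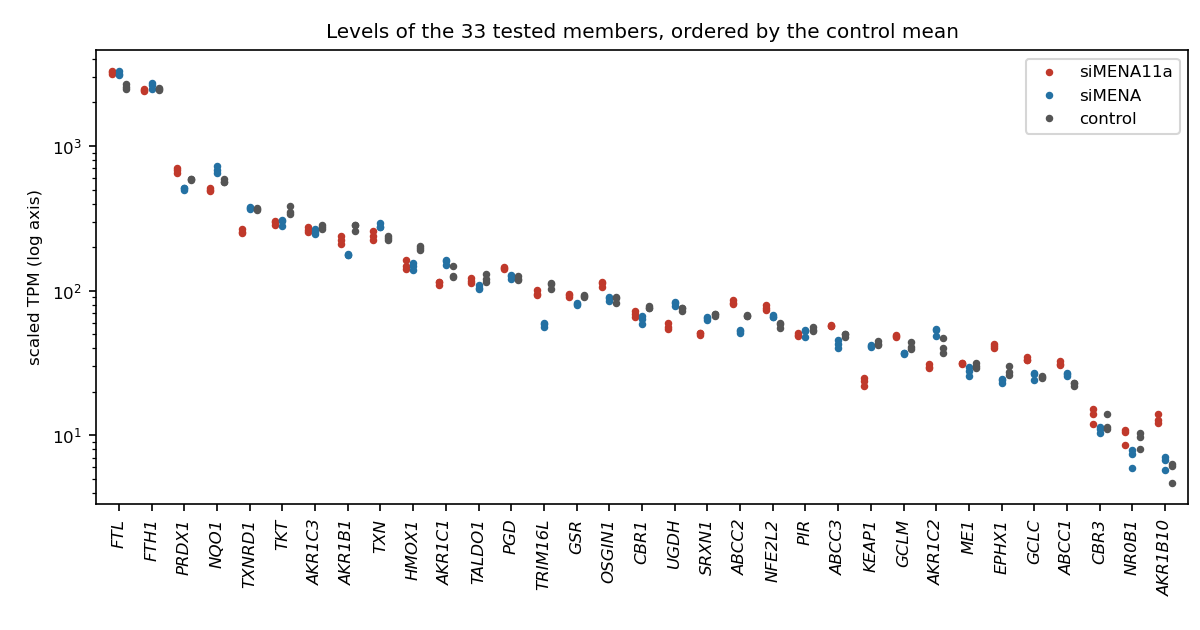
Scaled TPM on a log axis for the 33 tested genes, ordered by the control mean, with 1 point for each library and the groups side by side. FTL and FTH1 lie at 2407 or more in every library and AKR1B10 lies at 5.66 on average in control.

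In siMENA11a against control, the pathway moved in both directions. KEAP1 (ratio of means 0.544), the thioredoxin reductase TXNRD1 and sulfiredoxin SRXN1 fell, while NFE2L2, both subunits of glutamate-cysteine ligase, the efflux pumps ABCC1, ABCC2 and ABCC3, the epoxide hydrolase EPHX1 and the reductase AKR1B10 rose. Of the 33 tested genes, 25 (75.8%) were called at a limma adjusted p under 0.05, beside 55.6% of all tested genes. Of these, 12 were higher and 13 lower, beside 27.9% and 27.7% of all tested genes. The libraries of the groups did not overlap for 25 of the 33, beside 62.9% of all tested genes. Their median log2 fold change was 0.01, the same as 0.01 over all genes, and the median absolute change was 0.24 beside 0.23. Except for CBR3, NR0B1 and AKR1B10, the tested members stood at or above 73.9% of all tested genes by control level. Called shares among genes of like level were not computed for any comparison, so the higher shares cannot be set apart from level. A called change of at least 0.5 on the log2 scale was found for 4 genes (AKR1B10, EPHX1, KEAP1 and TXNRD1), beside 16.3% of all genes. With TPM as deposited, where the median of all tested genes lay at -0.11, the calls were 8 higher and 16 lower, and with quantile normalisation they were 13 higher and 8 lower. In 14 genes the call held under all 19 alternative settings. They were ABCC1, ABCC2, AKR1B10, EPHX1, GCLC, NFE2L2 and OSGIN1, which rose, and AKR1B1, AKR1C2, HMOX1, KEAP1, SRXN1, TXNRD1 and UGDH, which fell.

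In siMENA against control, the genes that moved furthest were others than in siMENA11a, and KEAP1 was not called. TRIM16L, a TRIM16-like protein, fell to a ratio of means of 0.534 and aldose reductase AKR1B1 also fell, while NQO1, AKR1C1, AKR1C2, thioredoxin and FTL rose. Of the 33 genes, 21 (63.6%) were called, beside 49.4% of all tested genes. Of these, 8 were higher and 13 lower, beside 23.7% and 25.8%. The median log2 fold change was -0.08, beside 0.01 over all genes, and the median absolute change was 0.21, beside 0.20. Libraries of the groups did not overlap for 24 genes, beside 57.6% of all tested genes. Only AKR1B1 and TRIM16L had a called change of at least 0.5 beside 12.8% of all genes. The count of lower calls was 7 in place of 13 with TPM as deposited, with TPM rescaled without small RNAs and with quantile normalisation. The call held under all 19 alternatives for 12 genes, of which ABCC1, AKR1C1, AKR1C2, FTL, NFE2L2, NQO1 and TXN rose and ABCC2, AKR1B1, CBR1, HMOX1 and TRIM16L fell.

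In siMENA11a against siMENA, the direct test of the difference between the knockdowns, KEAP1, AKR1C2, TXNRD1 and UGDH stood lower in siMENA11a and AKR1B10, EPHX1, TRIM16L and ABCC2 stood higher. Here 26 of the 33 genes (78.8%) were called, beside 58.7% of all tested genes. Of these, 18 were higher and 8 lower, beside 29.5% and 29.2%. Libraries did not overlap for 27 genes, beside 65.1%, and 8 had a called change of at least 0.5, beside 20.9%. The median was 0.17, beside 0.00065 over all genes, and the median absolute change was 0.34 beside 0.25. The balance of directions turned with TPM as deposited, where all tested genes had a median of -0.20. There, 8 genes were called higher and 14 lower. No other of the 19 alternatives moved either count by more than 1.5 times. The call held under all 19 alternatives for 16 genes, with ABCC2, ABCC3, AKR1B10, EPHX1, GCLC, GCLM, PRDX1 and TRIM16L higher and AKR1C1, AKR1C2, KEAP1, NQO1, SRXN1, TXN, TXNRD1 and UGDH lower. The comparisons with control share their control libraries, so the values below are given side by side for each gene. Amounts after rose by or fell by are log2 fold changes ± standard error, each with its limma adjusted p.

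**Figure D2:**
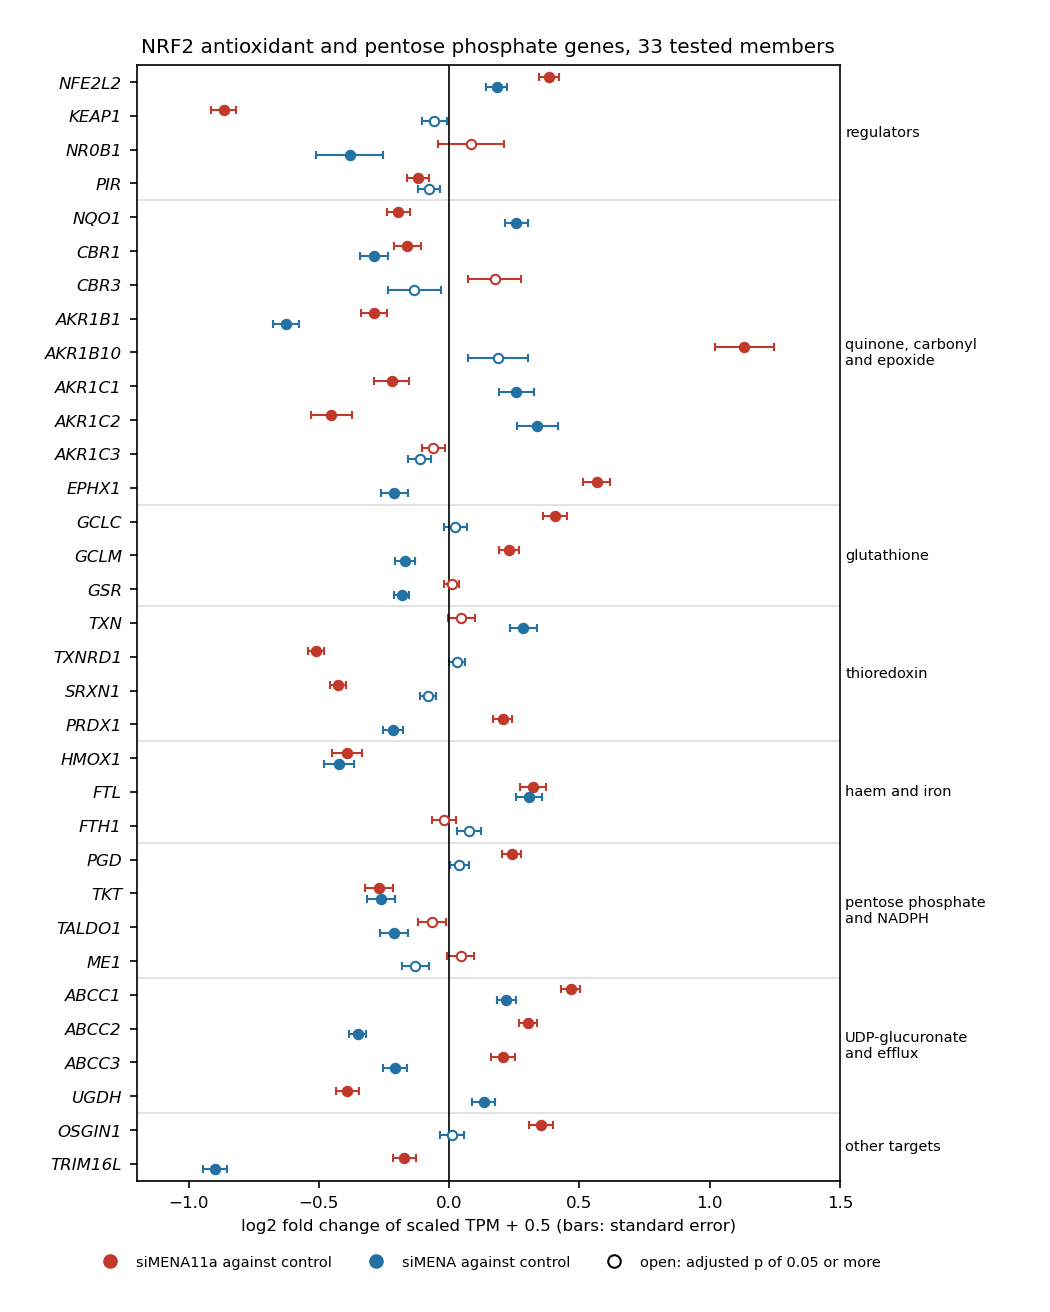
Log2 fold change of scaled TPM + 0.5 with its standard error for the 33 tested genes, grouped by role, for siMENA11a against control and siMENA against control (3 libraries a group). Filled points were called at a limma adjusted p under 0.05; KEAP1 lies at -0.87 and AKR1B10 at 1.13 in siMENA11a against control, and TRIM16L at -0.90 in siMENA against control.

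Among the regulators, KEAP1, the adaptor that targets NRF2 for degradation, had 24.9, 23.7 and 21.8 scaled TPM in the siMENA11a libraries, 40.9, 41.9 and 41.4 in siMENA and 42.2, 44.4 and 42.6 in control. The siMENA11a libraries lay far below the others. In bulk RNA, fewer cells expressing a gene and less RNA per cell cannot be told apart. The log2 fold change was -0.87 ± 0.048 (adjusted p = 7.05e-07) for siMENA11a against control, -0.056 ± 0.048 (adjusted p = 0.359) for siMENA against control and -0.81 ± 0.048 (adjusted p = 6.68e-07) for siMENA11a against siMENA. NFE2L2 had 73.7, 75.3 and 79.2 scaled TPM in the siMENA11a libraries, 65.5, 65.3 and 67.6 in siMENA and 59.1, 60.1 and 55.5 in control, with no overlap between any pair of groups. It rose by 0.38 ± 0.04 (adjusted p = 3.62e-05) in siMENA11a and by 0.18 ± 0.04 (adjusted p = 0.00413) in siMENA against control, and stood 0.20 ± 0.04 (adjusted p = 0.00175) higher in siMENA11a than in siMENA. The last difference was -0.016 with TPM as deposited. NR0B1, a nuclear receptor that is regulated by NRF2 in KEAP1-mutant lung cancer cells, had 10.4, 10.9 and 8.51 scaled TPM in the siMENA11a libraries, 5.97, 7.89 and 7.38 in siMENA and 10.4, 9.63 and 8.04 in control. In siMENA against control it fell by 0.38 ± 0.13 (adjusted p = 0.032), and the call ended without any one of control replicates 1 or 2 or siMENA replicates 1 or 3 (-0.41 to -0.27, adjusted p 0.0511 to 0.11). It also ended with TPM as deposited, without small RNAs and with no filter on low values (-0.30, -0.30 and -0.38, adjusted p = 0.0637, 0.0852 and 0.061). Between the knockdowns NR0B1 stood 0.47 ± 0.13 (adjusted p = 0.0106) higher in siMENA11a, without overlap. That call was lost under 1 of the 19 alternatives (adjusted p up to 0.0859) and kept with each library left out. PIR, an iron-binding nuclear protein induced by NRF2, ranged from 48.6 to 50.7 in siMENA11a, 47.8 to 53.0 in siMENA and 52.9 to 55.6 in control. It was called lower in siMENA11a against control at -0.12 ± 0.043 (adjusted p = 0.0378), and leaving out any 1 library of either group ended the call (-0.13 to -0.10, adjusted p 0.0543 to 0.117), as did 2 of the other scalings (-0.042 and -0.068, adjusted p = 0.481 and 0.218).

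The fall of KEAP1 is shown beside sequence, because the siRNAs of the siMENA11a mix match exon 11a and a short duplex can pair with other transcripts through its seed. The exon is printed with CCAAGGAA in capitals, which joins the words CAAGGAA and CCAAGGA, and the 3' UTR stretches of 4 of these genes (GENCODE 29, GRCh38, sense strand, 5′ to 3′) are printed with the 7 bases CAAGGAA in capitals.
ENAH exon 11a, chr1:225504991-225505053, minus strand: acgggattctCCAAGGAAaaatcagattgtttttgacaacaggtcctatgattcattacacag
KEAP1, word at chr19:10486155-10486161, minus strand: tgtaattttcCAAGGAAaataaagaac
NFE2L2, word at chr2:177233110-177233116, minus strand: attttttaacCAAGGAAatactcttgt
GCLC, word at chr6:53513366-53513372, minus strand: atttaatgtcCAAGGAAattttatcca
NQO1, word at chr16:69710864-69710870, minus strand: tctttttccaCAAGGAAtaaatgagag
The longest run shared between the exon and the 3' UTR was 11 bases in KEAP1 (TCCAAGGAAAA) and, with other letters, 11 bases in SRXN1 (AGATTGTTTTT), which both fell. At least 11 bases were shared by 4.74% of the 11315 tested genes searched. The run was 10 bases in GCLC and 9 in NFE2L2, which both rose, and 10 bases in ME1 (TTGTTTTTGA), which was not called. The words CAAGGAA or CCAAGGA were in the 3' UTR of 7 of the 33 tested genes (21.2%), beside 25.8% of all genes searched. They were in 4 of the 13 genes called lower in siMENA11a (AKR1C1, KEAP1, NQO1 and SRXN1), beside 33.1% of all genes called lower, and in 3 of the 12 called higher (ABCC2, GCLC and NFE2L2), beside 20.8%. The search covered every annotated coding transcript, and the word lay at differing distances from the gene's 3' end in RefSeq. A CAAGGAA position is given beside that end for each gene. Among the genes that rose, these were 99794131 beside 99852594 in ABCC2, 53513366 beside 53497341 in GCLC and 177233110 beside 177230303 in NFE2L2. Among those that fell, they were 10486155 beside 10486125 in KEAP1, 69710864 beside 69709401 in NQO1, 648352 beside 646615 in SRXN1 and 4982803 beside 4983283 in AKR1C1. Which transcripts the cells used cannot be read from gene totals. These words were picked in earlier work on these data because genes that fell carry them, so the shares over all genes are partly built in. Whether a duplex acts on any of these sites was not tested.

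The quinone, carbonyl and epoxide enzymes were divided. In siMENA11a against control, 2 of 9 tested genes rose and 5 fell (3 and 2 under quantile normalisation), beside 27.9% and 27.7% of all tested genes. In siMENA against control 3 rose and 3 fell (4 and 3 under quantile normalisation), beside 23.7% and 25.8%. NQO1, which reduces quinones to hydroquinones, had 515, 494 and 491 scaled TPM in the siMENA11a libraries, 651, 726 and 679.8 in siMENA and 566, 563 and 589 in control. The siMENA11a libraries were lowest and the siMENA libraries highest, without overlap. Its log2 fold change was -0.20 ± 0.045 (adjusted p = 0.00437) in siMENA11a and 0.26 ± 0.045 (adjusted p = 0.0011) in siMENA against control, and -0.45 ± 0.045 (adjusted p = 1.75e-05) between the knockdowns. The fall in siMENA11a was -0.07 (adjusted p = 0.164) with quantile normalisation.

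AKR1B10, a reductase of retinal and other carbonyls that is known as a NRF2 target in lung cancer, had 13.9, 12.1 and 12.8 scaled TPM in the siMENA11a libraries, 6.68, 5.70 and 7.10 in siMENA and 6.07, 6.27 and 4.64 in control. The siMENA11a libraries stood above all others. AKR1B10 rose by 1.13 ± 0.11 (adjusted p = 2.91e-05) in siMENA11a against control, a ratio of means of 2.28; siMENA against control gave 0.19 ± 0.11 (adjusted p = 0.202), and the difference between the knockdowns was 0.94 ± 0.11 (adjusted p = 7.02e-05). Its relative AKR1B1, aldose reductase, had 237, 225 and 210.3 scaled TPM in the siMENA11a libraries, 176, 179 and 177 in siMENA and 282, 284 and 257 in control, so siMENA was lowest and no groups overlapped. AKR1B1 fell by 0.29 ± 0.05 (adjusted p = 0.000931) in siMENA11a and fell by 0.63 ± 0.05 (adjusted p = 9.76e-06) in siMENA against control. With TPM as deposited the AKR1B1 difference between the knockdowns was 0.12 (adjusted p = 0.062). Over their coding sequences AKR1B10 and AKR1B1 are identical at 77.1% of aligned bases.

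EPHX1, the microsomal epoxide hydrolase, had 39.9, 42.5 and 41.1 scaled TPM in the siMENA11a libraries, 23.0, 24.3 and 24.0 in siMENA and 27.2, 29.9 and 26.0 in control, with siMENA11a above both other groups. It rose by 0.57 ± 0.052 (adjusted p = 1.54e-05) in siMENA11a and fell by 0.21 ± 0.052 (adjusted p = 0.00752) in siMENA against control, and the difference between the knockdowns was 0.78 ± 0.052 (adjusted p = 1.37e-06). The fall in siMENA was -0.13 (adjusted p = 0.173) with TPM as deposited and -0.11 (adjusted p = 0.134) with TPM rescaled without small RNAs. AKR1C2, a hydroxysteroid dehydrogenase, had 30.9, 29.5 and 28.96 scaled TPM in the siMENA11a libraries, 48.6, 53.1 and 54.1 in siMENA and 39.9, 36.7 and 46.8 in control. The siMENA11a libraries were lowest and the siMENA libraries highest, with log2 fold changes of -0.45 ± 0.079 (adjusted p = 0.000915) in siMENA11a and 0.34 ± 0.079 (adjusted p = 0.00586) in siMENA against control, and -0.79 ± 0.079 (adjusted p = 1.9e-05) between the knockdowns. AKR1C1, whose coding sequence is 98.0% identical to that of AKR1C2, had 115, 115 and 109 scaled TPM in the siMENA11a libraries, 150.3, 160.2 and 163 in siMENA and 123, 125 and 148 in control. Its change was -0.22 ± 0.066 (adjusted p = 0.0178) in siMENA11a and 0.26 ± 0.066 (adjusted p = 0.00977) in siMENA against control. Without control replicate 3 the first was -0.14 (adjusted p = 0.0282), and without siMENA11a replicate 3 it was -0.19 (adjusted p = 0.064). It was also not called without small RNAs (-0.14, adjusted p = 0.0712) or with quantile normalisation (-0.16, adjusted p = 0.0624). Counting could split reads among the AKR1C genes, so their single values are uncertain. AKR1C3 ranged over 253 to 276 scaled TPM in siMENA11a, 245 to 265 in siMENA and 266 to 284 in control and was not called in any of the 3 comparisons. In siMENA against control 5 of 19 alternatives called it lower (-0.14 to -0.11, adjusted p 0.0426 to 0.0499), among them leaving out siMENA11a replicate 1 or 3 or siMENA replicate 3. On the deposited scale it was called lower in siMENA11a than in control (-0.19, adjusted p = 0.0069) and than in siMENA (-0.17, adjusted p = 0.0128). Quantile normalisation turned the direction and called it higher than control in siMENA11a (0.084, adjusted p = 0.0472) and in siMENA (0.10, adjusted p = 0.0322).

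CBR1, a carbonyl reductase, ranged over 65.4 to 72.1 scaled TPM in siMENA11a, 58.3 to 67.0 in siMENA and 76.3 to 78.5 in control, with both knockdowns below every control library. Its change was -0.16 ± 0.053 (adjusted p = 0.0271) in siMENA11a and -0.29 ± 0.053 (adjusted p = 0.00158) in siMENA against control, and the first call ended without any one of control replicates 1, 2 or 3 or siMENA11a replicates 2 or 3 (-0.17 to -0.12, adjusted p 0.0528 to 0.106) and with 2 of the other scalings (-0.082 and -0.08, adjusted p = 0.15 and 0.203). CBR3, its paralogue, was called only between the knockdowns, at 0.31 ± 0.10 (adjusted p = 0.0261), and not without siMENA11a replicates 2 or 3 or siMENA replicates 1 or 2 (0.24 to 0.32, adjusted p 0.0503 to 0.095) or with TPM as deposited (0.10, adjusted p = 0.46). In siMENA11a against control it became called without control replicate 3 or siMENA11a replicate 1 (0.28 and 0.27, adjusted p = 0.0318 and 0.0434). ALDH3A1, an aldehyde dehydrogenase, reached at most 0.0466 scaled TPM in any library.

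Of the glutathione genes, both subunits of glutamate-cysteine ligase, which makes the first step of glutathione synthesis, were higher in siMENA11a, although GCLM was not called there with TPM as deposited. The catalytic subunit GCLC had 33.3, 33.3 and 34.6 scaled TPM in the siMENA11a libraries, 24.0, 26.8 and 26.5 in siMENA and 24.8, 25.3 and 25.8 in control. It rose by 0.41 ± 0.045 (adjusted p = 5.48e-05) in siMENA11a against control and stood 0.38 ± 0.045 (adjusted p = 5.96e-05) above siMENA, while siMENA against control gave 0.024 ± 0.045 (adjusted p = 0.689). The modifier subunit GCLM had 48.5, 48.0 and 49.4 scaled TPM in the siMENA11a libraries, 36.8, 36.9 and 36.7 in siMENA and 43.8, 40.8 and 39.7 in control, and no groups overlapped. GCLM rose by 0.23 ± 0.038 (adjusted p = 0.000708) in siMENA11a and fell by 0.17 ± 0.038 (adjusted p = 0.00505) in siMENA against control. With TPM as deposited these were 0.10 (adjusted p = 0.164) and -0.08 (adjusted p = 0.228). The fall of GCLM in siMENA was not called under any of the 3 other scalings. GSR, which regenerates reduced glutathione with NADPH, ranged over 90.2 to 94.5 scaled TPM in siMENA11a, 79.5 to 81.5 in siMENA and 90.6 to 93.5 in control. Only the siMENA libraries stood apart, with -0.18 ± 0.029 (adjusted p = 0.000683) for siMENA against control, which was -0.10 (adjusted p = 0.133) with TPM as deposited. None of the 3 other scalings kept the GSR call (values up to -0.044, adjusted p up to 0.283). GPX2, a glutathione peroxidase, did not exceed 0.339 scaled TPM in any library.

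Of the 4 thioredoxin genes, 1 rose and 2 fell in siMENA11a against control, beside 27.9% and 27.7% of all tested genes. In siMENA against control 1 rose and 1 fell, beside 23.7% and 25.8%. On the deposited TPM scale the counts were 0 and 2 in siMENA11a and 2 and 1 in siMENA. TXNRD1, which reduces thioredoxin with NADPH, had 265, 252 and 255 scaled TPM in the siMENA11a libraries, 369, 379 and 374 in siMENA and 370.1, 362 and 367 in control. Every siMENA11a library lay below every other library. TXNRD1 fell by 0.51 ± 0.03 (adjusted p = 9.88e-07) in siMENA11a against control, and the difference from siMENA was -0.54 ± 0.03 (adjusted p = 4.41e-07); siMENA against control gave 0.03 ± 0.03 (adjusted p = 0.438). Each of the 3 other scalings called TXNRD1 higher in siMENA (0.11, 0.13 and 0.25, adjusted p = 0.0431, 0.00319 and 0.000117, for TPM as deposited, without small RNAs and quantile normalisation). SRXN1, which rescues over-oxidised peroxiredoxins, had 49.7, 50.8 and 50.8 scaled TPM in the siMENA11a libraries, 62.3, 65.8 and 64.3 in siMENA and 68.4, 68.8 and 66.5 in control. The siMENA11a values were lowest and tightly grouped, and the change was -0.43 ± 0.031 (adjusted p = 3.55e-06) in siMENA11a and -0.082 ± 0.031 (adjusted p = 0.0508) in siMENA against control. Without control replicate 3 or siMENA replicate 2 the siMENA value was -0.10 and was called (adjusted p 0.0409 to 0.0416). TXN, thioredoxin itself, ranged over 223 to 256 scaled TPM in siMENA11a, 276 to 292 in siMENA and 224 to 238 in control. In siMENA against control it rose by 0.28 ± 0.051 (adjusted p = 0.00134). PRDX1 ranged over 646 to 707 in siMENA11a, 496 to 512 in siMENA and 585 to 588 in control, with no overlap. PRDX1 rose by 0.21 ± 0.037 (adjusted p = 0.00125) in siMENA11a and fell by 0.22 ± 0.037 (adjusted p = 0.00115) in siMENA against control, and the first was 0.072 (adjusted p = 0.121) with TPM as deposited and the second -0.09 (adjusted p = 0.0543) with quantile normalisation.

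**Figure D3:**
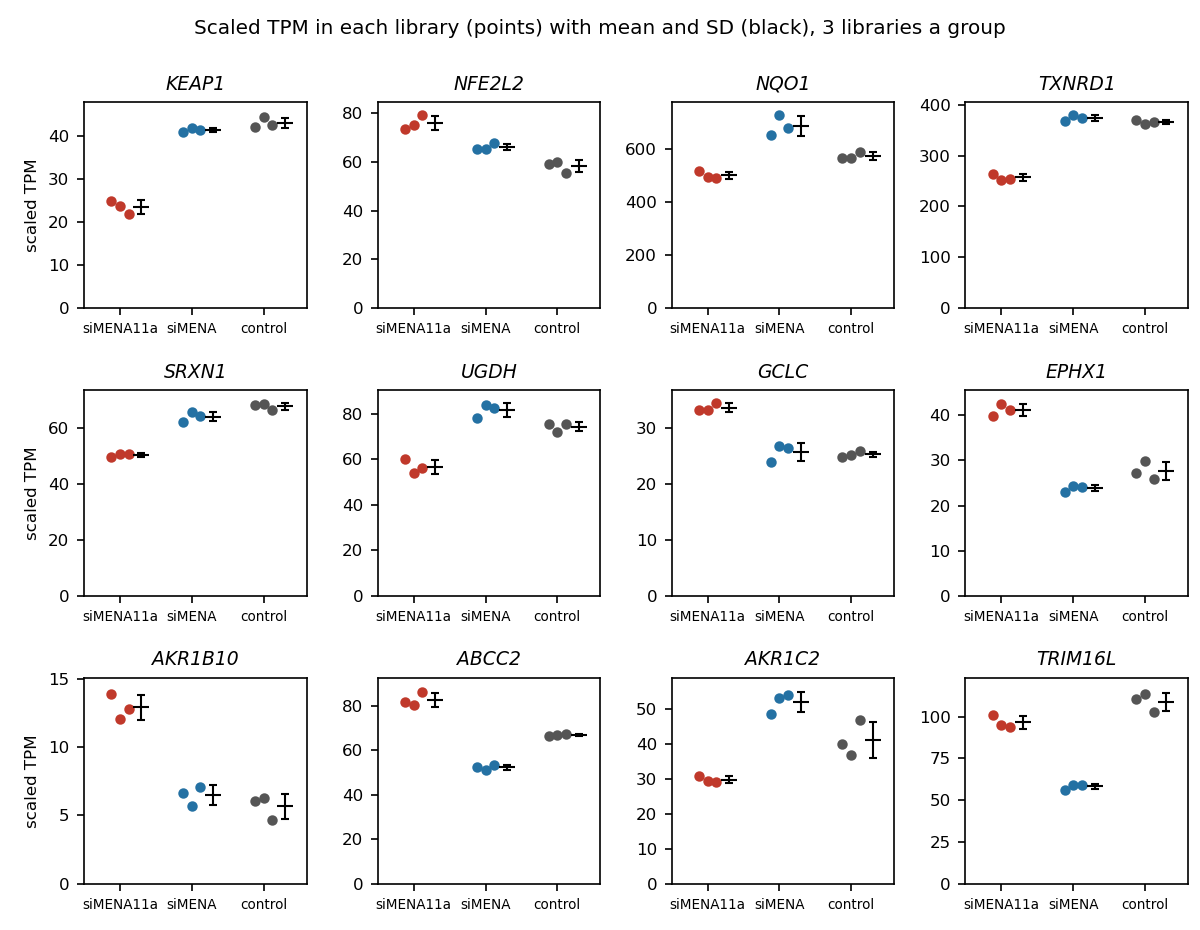
Scaled TPM of 12 genes in each of the 9 libraries, with the group mean and SD beside the points (3 libraries a group, axes starting at 0). KEAP1, TXNRD1, SRXN1 and UGDH are lowest in siMENA11a, GCLC, EPHX1 and AKR1B10 are highest there, and TRIM16L is lowest in siMENA.

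Of the haem and iron genes, HMOX1 was lower and FTL higher in both knockdowns, set against the same control libraries. HMOX1, which degrades haem, had 162, 148 and 141 scaled TPM in the siMENA11a libraries, 155, 139 and 148 in siMENA and 196, 204 and 191 in control. Every control library exceeded every knockdown library. HMOX1 fell by 0.39 ± 0.058 (adjusted p = 0.000327) in siMENA11a and fell by 0.42 ± 0.058 (adjusted p = 0.000258) in siMENA, and the difference between the knockdowns was not called at 0.031 ± 0.058 (adjusted p = 0.67). FTL had 3301, 3237 and 3128 scaled TPM in the siMENA11a libraries, 3144, 3297 and 3115 in siMENA and 2549, 2497 and 2689.7 in control, with control lowest. FTL rose by 0.32 ± 0.05 (adjusted p = 0.000447) in siMENA11a and by 0.30 ± 0.05 (adjusted p = 0.000778) in siMENA, and with quantile normalisation the first was 0.04 (adjusted p = 0.72). FTH1, the other ferritin chain, ranged over 2407 to 2483 in siMENA11a, 2490.4 to 2711 in siMENA and 2443 to 2523 in control and was not called in any of the 3 comparisons. With TPM as deposited it was called in all 3 (-0.15, 0.16 and -0.31 in siMENA11a against control, siMENA against control and between the knockdowns; adjusted p = 0.0244, 0.0222 and 0.00027). Between the knockdowns it was also called without siMENA replicate 1 (-0.13, adjusted p = 0.034) and with a robust variance model (-0.097, adjusted p = 0.0401), and without small RNAs it was called in siMENA (0.18, adjusted p = 0.00612) and between the knockdowns (-0.12, adjusted p = 0.0351). The ferritin pseudogenes in the table, 2 of FTH1 and 1 of FTL, reached at most 2.73 scaled TPM in sum.

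Of the 4 pentose phosphate and NADPH genes, 1 rose and 1 fell in siMENA11a against control, beside 27.9% and 27.7% of all tested genes. In siMENA against control 2 fell, beside 25.8%. On the deposited scale these counts were 0 and 2 in siMENA11a, and 0 and 1 in siMENA. PGD, the 6-phosphogluconate dehydrogenase that makes NADPH in the oxidative branch, had 144, 147 and 141 scaled TPM in the siMENA11a libraries, 119.9, 127 and 127 in siMENA and 119, 119 and 126 in control. The siMENA11a libraries stood above the rest, and PGD rose by 0.24 ± 0.037 (adjusted p = 0.000413) in siMENA11a against control, with 0.038 ± 0.037 (adjusted p = 0.42) in siMENA. With TPM as deposited the rise was 0.11 (adjusted p = 0.0885), and PGD was called higher in siMENA without small RNAs and with quantile normalisation (0.14 and 0.15, adjusted p = 0.00591 and 0.0127). TKT, transketolase of the non-oxidative branch, had 303, 297 and 286 scaled TPM in the siMENA11a libraries, 281, 301 and 309 in siMENA and 337, 350.0 and 384 in control. Control was above both knockdowns, which overlapped, with changes of -0.27 ± 0.053 (adjusted p = 0.00196) in siMENA11a and -0.26 ± 0.053 (adjusted p = 0.00279) in siMENA against control. Quantile normalisation ended both calls (-0.09, adjusted p = 0.122, and -0.03, adjusted p = 0.658). TALDO1, transaldolase, had 122, 116 and 112 scaled TPM in the siMENA11a libraries, 102, 104 and 110.1 in siMENA and 121, 131 and 115 in control. In siMENA against control it fell by 0.21 ± 0.053 (adjusted p = 0.0081), which was -0.13 (adjusted p = 0.124) with TPM as deposited. The fall of TALDO1 was not called under any of the 3 other scalings (adjusted p up to 0.192). For siMENA11a against control TALDO1 gave -0.066 ± 0.053 (adjusted p = 0.314). ME1, the cytosolic malic enzyme that also makes NADPH, had 30.9, 31.4 and 31.5 scaled TPM in the siMENA11a libraries, 25.6, 28.0 and 29.5 in siMENA and 31.7, 29.03 and 30.2 in control. It was not called against control in either knockdown (0.045 ± 0.052 (adjusted p = 0.497) for siMENA11a and -0.13 ± 0.052 (adjusted p = 0.0663) for siMENA), though without siMENA replicate 3 the second was -0.18 (adjusted p = 0.0227). Between the knockdowns, PGD, TALDO1 and ME1 were higher in siMENA11a at 0.20, 0.15 and 0.17, and all of these were below 0 with TPM as deposited (-0.015, -0.071 and -0.040). The TALDO1 call also ended without control replicate 1, siMENA11a replicates 1 or 2 or siMENA replicates 1 or 2 (0.11 to 0.15, adjusted p 0.0513 to 0.123).

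Among efflux and conjugation genes, the pumps ABCC1, ABCC2 and ABCC3, which export glutathione and glucuronide conjugates, rose in siMENA11a, although ABCC3 was not called there with TPM as deposited. ABCC2 had 81.6, 80.2 and 86.4 scaled TPM in the siMENA11a libraries, 52.5, 51.1 and 53.5 in siMENA and 66.6, 66.8 and 67.4 in control, with siMENA11a highest, siMENA lowest and no overlap. Its change was 0.30 ± 0.034 (adjusted p = 6.19e-05) in siMENA11a and -0.35 ± 0.034 (adjusted p = 3.13e-05) in siMENA against control, and 0.65 ± 0.034 (adjusted p = 3.15e-07) between the knockdowns. ABCC1 ranged over 30.6 to 32.5 in siMENA11a, 25.8 to 26.8 in siMENA and 21.9 to 23.1 in control and rose by 0.47 ± 0.037 (adjusted p = 5.95e-06) in siMENA11a and 0.22 ± 0.037 (adjusted p = 0.00092) in siMENA. With TPM as deposited the ABCC1 difference between the knockdowns was 0.033 (adjusted p = 0.666). ABCC3 ranged over 56.7 to 57.4, 39.8 to 45.6 and 48.0 to 49.97 in siMENA11a, siMENA and control. It rose by 0.21 ± 0.046 (adjusted p = 0.0037) in siMENA11a and fell by 0.21 ± 0.046 (adjusted p = 0.0046) in siMENA, and neither was called with TPM as deposited (0.08, adjusted p = 0.348, and -0.12, adjusted p = 0.142). The fall of ABCC3 in siMENA was not called under any of the 3 other scalings. UGDH, which makes the UDP-glucuronate used for glucuronidation, went the other way, with 59.9, 54.0 and 55.9 scaled TPM in the siMENA11a libraries, 78.3, 83.9 and 82.6 in siMENA and 75.6, 71.9 and 75.6 in control. UGDH was lowest in siMENA11a, where it fell by 0.39 ± 0.045 (adjusted p = 6.7e-05) against control, and the difference from siMENA was -0.52 ± 0.045 (adjusted p = 6.94e-06). In siMENA it rose by 0.13 ± 0.045 (adjusted p = 0.0329), a call that ended without control replicates 1 or 2 or siMENA replicates 2 or 3 (0.11 to 0.14, adjusted p 0.0533 to 0.111).

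The remaining targets were TRIM16L and OSGIN1. TRIM16L had 101, 95.0 and 93.7 scaled TPM in the siMENA11a libraries, 56.1, 59.2 and 59.1 in siMENA and 111, 113 and 103 in control, with every siMENA library far below the rest. It fell by 0.90 ± 0.045 (adjusted p = 6.25e-07) in siMENA and fell by 0.17 ± 0.045 (adjusted p = 0.00921) in siMENA11a against control, and TPM rescaled without small RNAs gave -0.09 (adjusted p = 0.112) for siMENA11a. TRIM16, its full-length relative, shares 98.7% of 1047 coding bases with it and averaged 61.3 ± 1.24 in siMENA11a, 38.7 ± 0.587 in siMENA and 73.8 ± 4.29 in control, so the values of the pair are uncertain where reads could be split. OSGIN1, an oxidative stress-induced growth inhibitor, ranged over 106 to 115 scaled TPM in siMENA11a, 84.8 to 89.9 in siMENA and 81.9 to 90.4 in control. Only siMENA11a stood apart, with 0.35 ± 0.046 (adjusted p = 0.000151) against control, though OSGIN1 was called higher in siMENA with quantile normalisation (0.16, adjusted p = 0.0131). With TPM as deposited the OSGIN1 difference between the knockdowns was 0.13 (adjusted p = 0.0628).

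**Figure D4:**
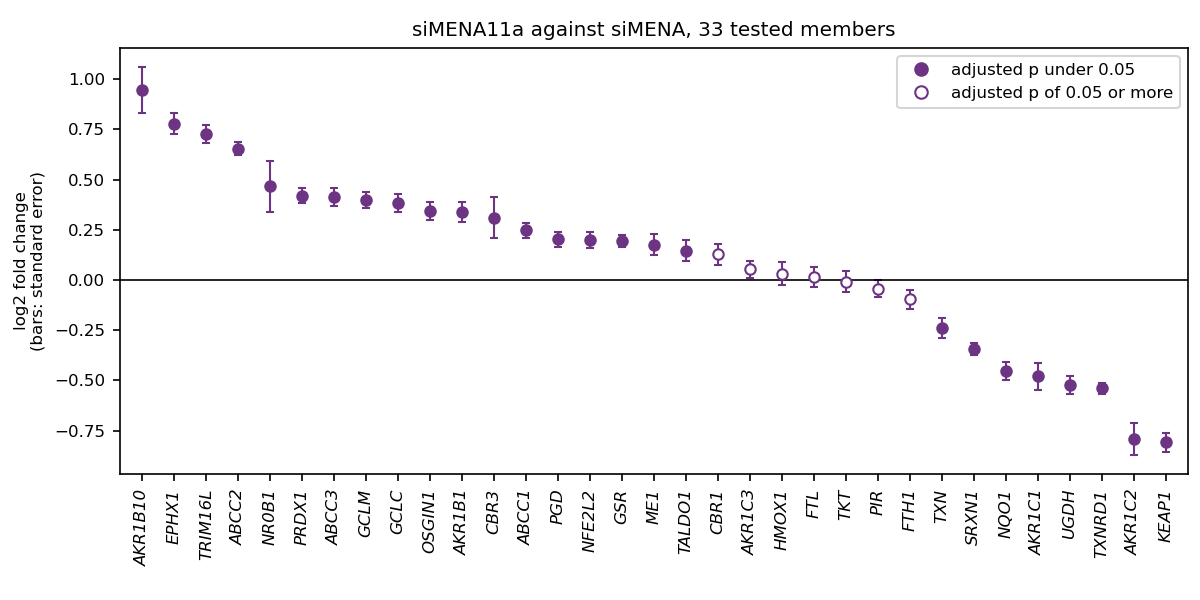
Log2 fold change with its standard error for siMENA11a against siMENA in the 33 tested genes, ordered by value (3 libraries a group); filled points were called at a limma adjusted p under 0.05. AKR1B10 (0.94), EPHX1 (0.78), TRIM16L (0.73) and ABCC2 (0.65) stand at the high end and KEAP1 (-0.81), AKR1C2 (-0.79) and TXNRD1 (-0.54) at the low end.

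Promoters were examined for the core of the antioxidant response element, since these genes moved in both directions. RefSeq windows (GRCh38.p14, 250 bases before to 50 after a start site) were matched for 25 of the 35 genes. A start site need not be the first base of the gene. The EPHX1 window begins at 225825104 and the gene at 225810124, and the printed TXNRD1 window begins at 104286782 and the gene at 104215779. For KEAP1, on the minus strand, the window reaches up to 10503021 and the gene up to 10503356. CBR3, AKR1B10, ALDH3A1, GSR, PRDX1, HMOX1, FTH1, ABCC1, ABCC3 and TRIM16L were not matched. The letters TGACNNNGC on either strand were present in 9 of the 25 (36.0%), beside 13.3% of all 35116 windows of the table and 19.7% of 9462 tested genes. The stretches below show 1 match a gene, printed 5′ to 3′ in the direction of the gene, with the 9 matching bases in capitals. KEAP1 and ME1 held 2 matches each in their windows. TXNRD1 held 1 in the printed window and 2 more, not printed, 99 and 8 bases before the first base of the gene.
KEAP1, chr19:10502779-10502817, minus strand, 31 bases before the start: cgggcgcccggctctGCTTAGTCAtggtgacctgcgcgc
TXNRD1, chr12:104286915-104286953, plus strand, 102 bases before the start: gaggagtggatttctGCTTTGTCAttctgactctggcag
CBR1, chr21:36069850-36069888, plus strand, 159 bases before the start: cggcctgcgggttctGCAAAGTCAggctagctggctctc
GCLM, chr1:93909441-93909479, minus strand, 34 bases before the start: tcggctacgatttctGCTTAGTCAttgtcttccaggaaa
EPHX1, chr1:225825261-225825299, plus strand, 78 bases before the start: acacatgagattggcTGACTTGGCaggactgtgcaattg
PGD, chr1:10398848-10398886, plus strand, 201 bases before the start: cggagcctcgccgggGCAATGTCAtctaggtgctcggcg
ME1, chr6:83431165-83431203, minus strand, 137 bases before the start: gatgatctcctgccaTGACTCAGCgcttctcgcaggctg
The first 3 of these genes fell in siMENA11a against control, the next 3 rose, and ME1 was not called. PIR, which was called lower, and GPX2, which was not tested, also held a match. These are matches of letters in a window, and factor binding was not measured. The genes were chosen by name as NRF2 targets and regulators, so a share above that of all windows is partly built in. A gene without a match may hold these letters outside its window, which was not searched.

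Other genes of the pathway were read from lists of NRF2 partners, glutathione and thioredoxin genes, NADPH and pentose phosphate genes, and conjugation and efflux genes. Of 19 tested NRF2 partners and regulators, 9 rose and 2 fell in siMENA11a against control, and 6 rose and 6 fell in siMENA against control, beside 27.9% higher and 27.7% lower of all genes in siMENA11a and 23.7% and 25.8% in siMENA, with medians of 0.073 and -0.0093. On the deposited TPM scale the counts were 3 and 5 in siMENA11a and 6 and 2 in siMENA. Without small RNAs they were 11 and 1, and 9 and 2, where the medians of all tested genes were 0.094 and 0.11. Quantile normalisation gave 9 and 2 in siMENA11a and 6 and 4 in siMENA. MAFG, a small MAF partner of NRF2, averaged 41.7 ± 0.811 in siMENA11a, 37.7 ± 0.112 in siMENA and 29.6 ± 1.21 in control and rose by 0.49 ± 0.035 (adjusted p = 3.8e-06) in siMENA11a and 0.34 ± 0.035 (adjusted p = 4.63e-05) in siMENA. BACH1, a repressor that competes for the same elements, averaged 13.7 ± 0.963 in siMENA11a, 10.3 ± 0.301 in siMENA and 9.60 ± 0.0813 in control and rose in siMENA11a by 0.49 ± 0.052 (adjusted p = 4.59e-05). SQSTM1, which binds KEAP1 and carries it to autophagy, averaged 197 ± 7.24 in siMENA11a, 136 ± 1.17 in siMENA and 149 ± 6.06 in control, with 0.40 ± 0.038 (adjusted p = 1.98e-05) in siMENA11a and -0.13 ± 0.038 (adjusted p = 0.0179) in siMENA, the second of which was not called under any of the 3 other scalings (-0.046 to 0.0086). CUL3, the ligase scaffold, averaged 35.05 ± 0.257 in siMENA11a, 34.99 ± 1.29 in siMENA and 35.2 ± 0.698 in control and was not called in either (adjusted p = 0.887 and 0.847). MAFK averaged 59.0, 39.4 and 53.2 scaled TPM in siMENA11a, siMENA and control, MAFF averaged 8.60, 10.0 and 11.0, and NFE2L1, a related factor, averaged 57.2, 63.9 and 57.8. MAFK rose by 0.15 ± 0.037 (adjusted p = 0.00745) in siMENA11a (0.014, adjusted p = 0.861, with TPM as deposited) and fell by 0.43 ± 0.037 (adjusted p = 1.49e-05) in siMENA; in siMENA11a MAFF fell by 0.33 ± 0.099 (adjusted p = 0.0167), a call lost without small RNAs (adjusted p = 0.0683), and NFE2L1 rose in siMENA by 0.15 ± 0.026 (adjusted p = 0.00145). NFE2L3, another related factor, was lower in both, at -0.98 ± 0.068 (adjusted p = 2.86e-06) in siMENA11a and -0.76 ± 0.068 (adjusted p = 1.9e-05) in siMENA.

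Of 45 other glutathione and thioredoxin genes tested, 23 rose and 7 fell in siMENA11a against control, and 15 rose and 14 fell in siMENA, beside the same shares of all genes, with medians of 0.23 and 0.009. On the deposited TPM scale the counts were 14 and 13 in siMENA11a and 18 and 9 in siMENA. Without small RNAs, where 46 genes were tested, they were 29 and 6 in siMENA11a and 20 and 10 in siMENA. Quantile normalisation gave 27 and 7 in siMENA11a and 20 and 9 in siMENA. SLC7A11, the cystine importer that feeds glutathione synthesis, averaged 69.8 ± 4.84 in siMENA11a, 30.3 ± 1.07 in siMENA and 43.1 ± 2.98 in control. It rose by 0.69 ± 0.061 (adjusted p = 1.2e-05) in siMENA11a and fell by 0.50 ± 0.061 (adjusted p = 0.000127) in siMENA, and the difference between the knockdowns was 1.19 ± 0.061 (adjusted p = 2.76e-07). CHAC1, which degrades glutathione, rose in siMENA11a by 2.22 ± 0.13 (adjusted p = 8.01e-07), with 0.37 ± 0.13 (adjusted p = 0.0353) in siMENA, and TXNIP, a thioredoxin-binding protein, averaged 6.63 ± 0.933 in siMENA11a, 3.79 ± 0.116 in siMENA and 1.83 ± 0.207 in control and rose by 1.61 ± 0.10 (adjusted p = 1.94e-06) in siMENA11a and 0.88 ± 0.10 (adjusted p = 0.00011) in siMENA. In siMENA, SOD2, the mitochondrial superoxide dismutase, fell by 0.75 ± 0.049 (adjusted p = 2.65e-06) and GPX1, a glutathione peroxidase, fell by 0.69 ± 0.047 (adjusted p = 3.3e-06), while siMENA11a gave -0.28 ± 0.049 (adjusted p = 0.000892) for SOD2 and 0.24 ± 0.047 (adjusted p = 0.00174) for GPX1, which was not called with TPM as deposited. GSTP1, a glutathione transferase, averaged 346 ± 11.5 in siMENA11a, 358 ± 8.62 in siMENA and 339 ± 7.31 in control and was not called against control (adjusted p = 0.504 and 0.0995). Of 19 other NADPH and pentose phosphate genes, 5 rose and 6 fell in siMENA11a, and 4 rose and 7 fell in siMENA. For these the deposited scale gave 3 and 9, and 5 and 3. Without small RNAs the counts were 7 and 5, and 7 and 4, and with quantile normalisation 6 and 5, and 5 and 4. PRPS2, which makes phosphoribosyl pyrophosphate, fell by 0.67 ± 0.06 (adjusted p = 1.41e-05) and IDH2, a mitochondrial isocitrate dehydrogenase, fell by 0.37 ± 0.034 (adjusted p = 1.61e-05) in siMENA11a, and in siMENA they stood at -0.19 ± 0.06 (adjusted p = 0.0241) and -0.20 ± 0.034 (adjusted p = 0.000988), calls lost with TPM as deposited. The folate enzymes MTHFD2 and MTHFD1 were lower in siMENA, at -0.49 ± 0.028 (adjusted p = 1.09e-06) and -0.48 ± 0.036 (adjusted p = 6.5e-06), and also in siMENA11a, at -0.14 ± 0.028 (adjusted p = 0.0016) and -0.26 ± 0.036 (adjusted p = 0.000236). The MTHFD2 call in siMENA11a was lost without small RNAs and with quantile normalisation. Of 22 other conjugation and efflux genes, 13 rose and 5 fell in siMENA11a and 7 rose and 6 fell in siMENA. For these the deposited scale gave 9 and 7, and 9 and 6. Without small RNAs the counts were 14 and 3, and 10 and 6, and with quantile normalisation 13 and 4, and 7 and 6. The pump ABCC4 fell by 0.88 ± 0.05 (adjusted p = 8.39e-07) and the sulfotransferase SULT1A1 rose by 0.87 ± 0.066 (adjusted p = 5.06e-06) in siMENA11a, and siMENA gave -0.064 ± 0.05 (adjusted p = 0.324) and -0.33 ± 0.066 (adjusted p = 0.00248). TRIM16 fell by 0.92 ± 0.042 (adjusted p = 4e-07) and biliverdin reductase BLVRB fell by 0.37 ± 0.025 (adjusted p = 3.57e-06) in siMENA, and siMENA11a gave -0.26 ± 0.042 (adjusted p = 0.000552) and 0.28 ± 0.025 (adjusted p = 1.37e-05). Across the 4 lists the share called in siMENA11a was 57.9%, 66.7%, 57.9% and 81.8%, beside the 55.6% of all tested genes, and in siMENA it was 63.2%, 64.4%, 57.9% and 59.1%, beside 49.4%.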

How the data were processed

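Ribosome-depleted total RNA of H2030 cells was sequenced as stranded, paired-end libraries, per the labels' protocols. The authors deposited 1 table of TPM for 29972 genes in 9 libraries, in 3 groups of 3, with 2 decimals and a sum of 1000000 in each library. Its name points to RSEM, while kallisto and GRCh37 are listed without a role, per the submitters' processing notes. The sources used here name neither aligner nor strand setting. Because TPM loses the read number, depth is unknown, without counting intervals.

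Each library was divided by its median-of-ratios size factor (12341 genes, present everywhere, mean TPM 1 or more). For the 13498 genes averaging 0.5 scaled TPM or more, limma 3.58.1 (R 4.3.3) compared log2(scaled TPM + 0.5) by 1 fit of group means with eBayes, a mean trend and no block, a scale which understates changes of low genes. P-values were adjusted by Benjamini and Hochberg over all tested genes of a comparison, and a gene was called at an adjusted p under 0.05. Errors are SDs over 3 libraries for levels and standard errors for log2 fold changes. The 19 alternatives for each comparison covered scaling, pseudocount, filter, variance model, replicate block and each library left out.

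The members and lists were chosen with earlier results of these data known. Per-library values are given for 12 core genes and for members called with a log2 fold change of at least 0.5 in any comparison, and a fixed set of partners is named with the 2 called genes of smallest adjusted p in each list. Not every gene of that set is reported here. Promoters came from RefSeq (GRCh38.p14), and 3' UTRs and exon 11a from GENCODE 29 (GRCh38). No sequence of the siRNAs was used, and no genome of the deposited build.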

Additional observations from a re-analysis of the deposited data

How the results depend on the processing

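Over the 33 tested genes and all alternatives, 1289 of the values called in the analysis as reported kept their call, 74 lost it and 5 changed sign. Of those not called, 439 stayed so, 35 became called and 39 changed sign. Every comparison was also run without each library of the group not compared, so these totals mix settings of unlike reach. Other scalings shifted all genes: their median log2 change was -0.11, 0.086 and -0.20 with TPM as deposited for the comparisons in the order of the report, and 0.094, 0.11 and -0.018 with TPM rescaled without small RNAs. The share of all calls that were higher was 28.6%, 63.4% and 24.3% with TPM as deposited and 62.9%, 66.1% and 47.7% without small RNAs, beside 50.2%, 47.9% and 50.3%. With TPM as deposited, 1965 genes were higher in siMENA11a and 2300 lower in siMENA against control, in place of 3770 and 3478, and 2030 higher and 6321 lower between the knockdowns, in place of 3984 and 3937. Of the 33 genes, 7 were then called lower in siMENA, and 8 higher and 14 lower between the knockdowns. Rescaling without small RNAs gave 7 lower in siMENA, and quantile normalisation gave 8 lower in siMENA11a and 7 lower in siMENA.

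These log2 fold changes took the other sign. With TPM as deposited, siMENA11a against control gave NR0B1 -0.042, GSR -0.12, TXN -0.086 and ME1 -0.086, siMENA against control gave KEAP1 0.027, PIR 0.0065 and SRXN1 0.0027, and siMENA11a against siMENA gave NFE2L2 -0.016, CBR1 -0.089, AKR1C3 -0.17, GSR -0.024, HMOX1 -0.19, FTL -0.20, PGD -0.015, TALDO1 -0.071 and ME1 -0.040. Without small RNAs they were AKR1C3 0.018, FTH1 0.059 and TALDO1 0.013 in siMENA11a, KEAP1 0.043, PIR 0.022 and SRXN1 0.018 in siMENA, and FTL -0.0047 between the knockdowns. Under quantile normalisation they were AKR1C3 0.084 in siMENA11a, KEAP1 0.044, PIR 0.028, AKR1C3 0.10 and SRXN1 0.044 in siMENA, and AKR1C3 -0.011, HMOX1 -0.036 and FTL -0.40 between the knockdowns. With each library left out, the values of uncalled genes ranged in siMENA11a against control from -0.016 to 0.19 (NR0B1), -0.0036 to 0.098 (TXN) and -0.0038 to 0.029 (GSR), in siMENA from -0.033 to 0.038 (OSGIN1) and -0.0058 to 0.073 (GCLC), and between the knockdowns from -0.024 to 0.078 (HMOX1), -0.00048 to 0.042 (FTL) and -0.047 to 0.020 (TKT). Other calls gained under a scaling were GSR (0.089, adjusted p = 0.0354) and ME1 (0.12, adjusted p = 0.0494) in siMENA11a and GCLC (0.12, adjusted p = 0.0311) in siMENA without small RNAs, TXN (0.16, adjusted p = 0.015) in siMENA11a with quantile normalisation, and TALDO1 in siMENA11a (-0.20, adjusted p = 0.023) and PIR and TKT between the knockdowns (-0.26 and -0.23, adjusted p = 0.00102 and 0.00657) with TPM as deposited. CBR1 between the knockdowns became called without siMENA11a replicate 2 or siMENA replicate 2 (0.17 each, adjusted p = 0.0352 and 0.0236). The cause was not tested. Read depth is unknown, so counting error cannot be separated from the spread of the libraries.

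Libraries of the same number did not deviate together (r of -0.065 to 0.058 over 9 pairs, beside -0.064 to 0.10 over 18 pairs of other numbers), and 3 of 9 libraries correlated best with their own number. With a replicate block, 24, 20 and 25 of the genes were called, in place of 25, 21 and 26. The calls not made were PIR in siMENA11a (-0.12, adjusted p = 0.0561), UGDH in siMENA (0.13, adjusted p = 0.0542) and TALDO1 between the knockdowns (0.15, adjusted p = 0.058).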
